A study of Drosophila melanogaster with 4 samples.

Results

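The 7 genes followed here act in juvenile hormone reception, response and breakdown, and were measured in Drosophila larvae with and without an extra left arm of chromosome 2. They are the receptor genes Met and gce, the response gene Kr-h1, the esterase gene Jhe and the epoxide hydrolase genes Jheh1, Jheh2 and Jheh3. They were chosen by name, and all 7 were found among the 14161 genes of the deposited tables, as 12 transcript models. RNA came from whole larvae of the third instar kept at 25 degrees, in 4 groups: normal females, normal males, trisomy 2L females and trisomy 2L males. The normal diploids are called Cantons in the series' design text, and for the trisomic larvae neither strain nor cross was given in the sources used here. Trisomic larvae carry 3 copies of 2L genes instead of 2. The labels name 4 biological repeats in each group, but the values analysed are the authors' means over them, in CPM, read counts scaled so that each column sums to 1000000. No difference below therefore has an error, a test or a p-value, and differences between groups are given by their size alone.

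Juvenile hormone is a sesquiterpenoid made in the corpora allata, which in fly larvae are part of the ring gland. It binds the related bHLH-PAS proteins Met and Gce, and the bound receptor switches on Kr-h1, a zinc finger repressor that holds back metamorphosis in insects. The hormone is inactivated by cleavage of its methyl ester, the reaction of juvenile hormone esterase (Jhe), and by opening of its epoxide, the reaction of the membrane-bound hydrolases encoded by the Jheh genes. Its decline, together with pulses of ecdysone, accompanies the passage from larva to pupa.

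Karyotype differences are log2(CPM + 1) in trisomic less normal larvae of the same sex. The median over 4069 genes of 2R, 3L and 3R averaging 10 CPM or more was -0.20 in females and -0.31 in males, so values relative to this shift are also given. Kr-h1, Jheh1, Jheh2 and Jheh3 averaged 10 CPM or more over the groups, and Met, gce and Jhe lay between 2 and 10 CPM. The former were set beside the 6308 genes that reached 10 CPM, and the latter beside the 4067 genes of 2 to 10 CPM, a range chosen after the values had been seen. In each column between 373 and 645 transcript models carry a single shared value, 2.22 CPM in normal females, 0.845 CPM in normal males, 2.81 CPM in trisomic females and 0.389 CPM in trisomic males. Its origin was not given in the sources used here, and levels near it cannot be read firmly. The 6 fat body markers, larval storage protein genes among them, stood at 1585 CPM or more in every group, so defining markers of the larval stage were present.

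Jhe was the member with the widest spread between groups, and its levels were low in trisomic larvae of both sexes. Kr-h1 and both receptor genes stood higher in both trisomic groups. The Jheh genes, which stand next to each other on 2R, each followed a different course: Jheh2 was lower in both sexes, Jheh3 was higher in males and nearly level in females, and Jheh1 was lower in females and higher in males.

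**Figure D1:**
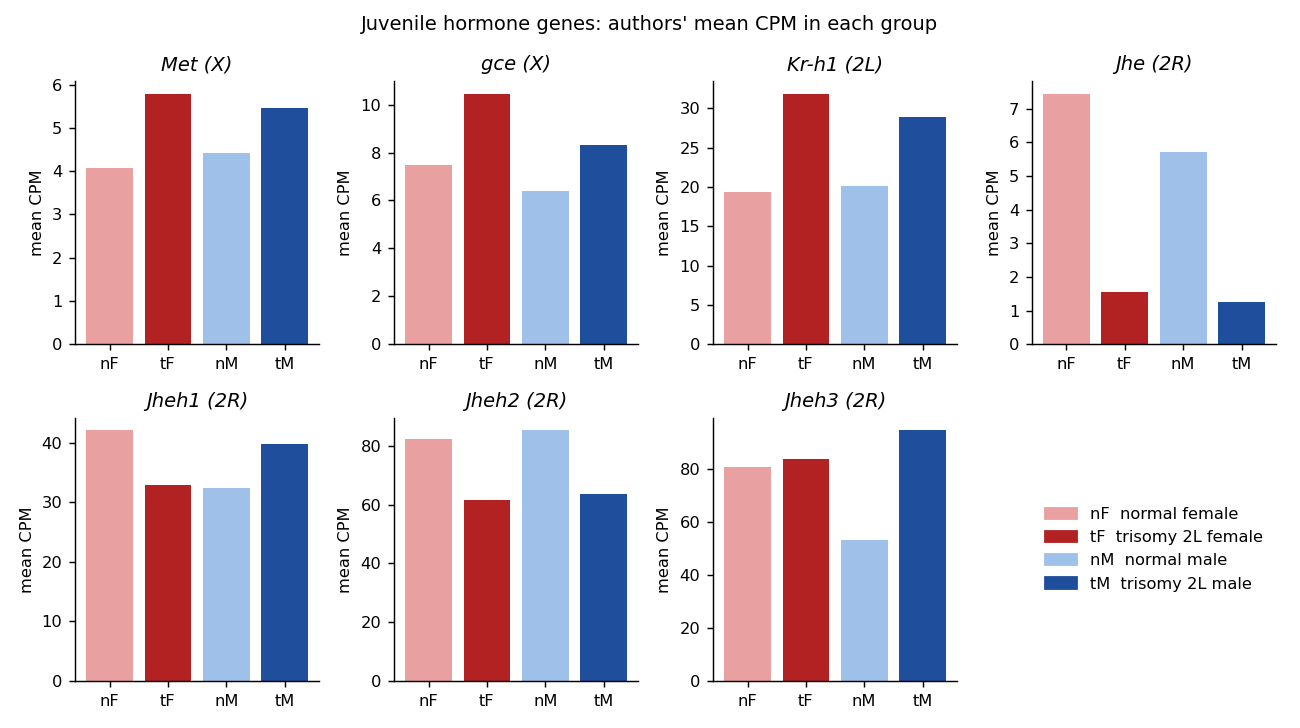
Authors' mean CPM (linear axis from 0, a separate scale in each panel) of the 7 genes in normal females (nF), trisomy 2L females (tF), normal males (nM) and trisomy 2L males (tM), with the chromosome arm in brackets; bars are single group means with no error available. Jhe stands at 7.45 against 1.56 CPM in females and at 5.70 against 1.25 CPM in males, while Met, gce and Kr-h1 are higher in both trisomic groups.

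Of the 4 members averaging 10 CPM or more, Kr-h1 alone was at least 1.5-fold higher in trisomic females, where 15.3% of the 6308 genes were, and none was at least 1.5-fold lower, where 18.3% were. In males Jheh3 alone was at least 1.5-fold higher, against 17.0% of genes, and none was lower, against 29.5%. Of the 3 members between 2 and 10 CPM, Jhe was at least 1.5-fold lower in both sexes, as were 13.7% of the 4067 genes of that range in females and 38.0% in males; it falls in that range through its normal groups. None of these 3 was at least 1.5-fold higher, against 13.9% of the range in females and 13.5% in males. Counts this small are near the shares of all genes and set no member group apart. On the scale relative to the autosomal shift, Kr-h1 remained the member of at least 10 CPM that was 1.5-fold higher in females, against 22.3% of genes, and in males Kr-h1, Jheh1 and Jheh3 were, against 27.6%. Of the members of 2 to 10 CPM, Met and gce then passed 1.5-fold in females (20.9% of the range) and gce in males (22.6%). These calls turn with the reference: the 2616 genes of 2R, 3L and 3R of 2 to 10 CPM had medians of -0.07 and -0.47. Relative to these, Met and gce did not pass in females, at 0.49 and 0.50 (15.9% of the range did), and both passed in males, at 0.73 and 0.81 (29.0%). The median difference of the 4 members of at least 10 CPM was -0.15 in females and 0.40 in males, beside -0.06 and -0.18 over the 6308 genes. Over all 7 members it was 0.05 and 0.29.

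**Figure D2:**
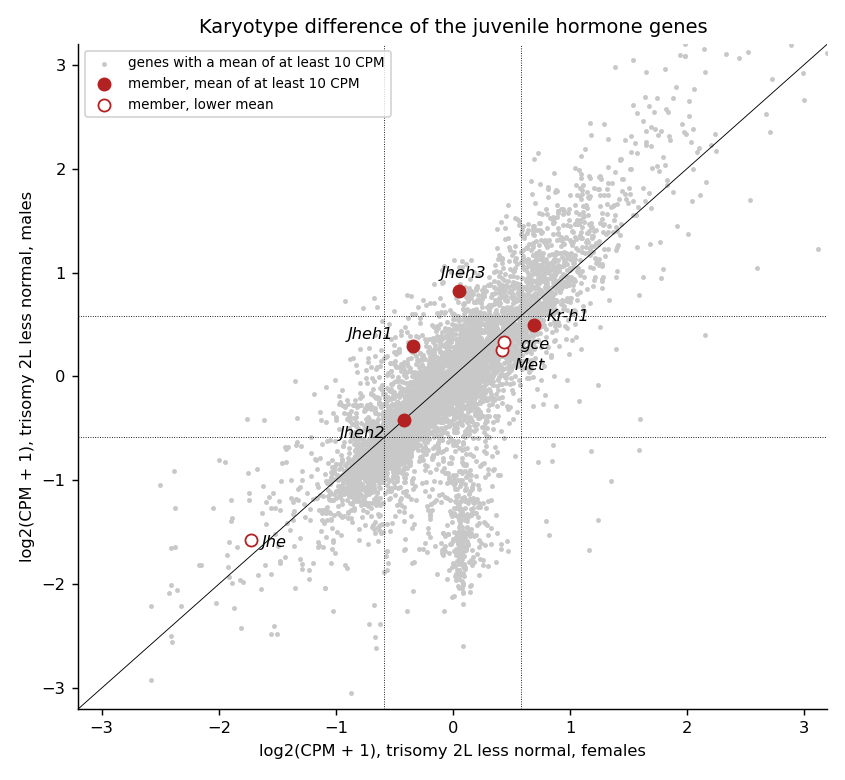
Each point is a gene, placed by its karyotype difference in females (x axis) and males (y axis), both as log2(CPM + 1) in trisomy 2L less normal larvae; grey points are genes with a mean of at least 10 CPM, 28 of which lie beyond the axes, and open circles are members below that mean. Dotted lines mark 1.5-fold and the solid line equal differences: Jhe sits near that line at -1.73 and -1.57, and Jheh1 and Jheh3 lie above it.

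Met encodes the receptor first found through mutants that tolerate a juvenile hormone analogue. Its level was 4.07 CPM in normal females, 5.80 CPM in trisomic females, 4.42 CPM in normal males and 5.47 CPM in trisomic males. Both trisomic groups were above both normal groups, by 1.42-fold in females and 1.24-fold in males. On the log2(CPM + 1) scale the differences were 0.42 and 0.26, or 0.62 and 0.57 relative to the autosomal shift.

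Its paralogue gce, which can stand in for Met in flies, was measured at 7.48 CPM in normal females, 10.5 CPM in trisomic females, 6.40 CPM in normal males and 8.32 CPM in trisomic males. Again both trisomic groups exceeded both normal ones, by 1.40-fold and 1.30-fold. The log2 differences were 0.43 in females and 0.33 in males, and 0.63 and 0.64 relative to the shift. Both receptor genes lie on the X, whose 699 genes of 2 to 10 CPM had a median of 0.05 in females and -0.14 in males. Met exceeded 74.8% of these X genes in females and 67.1% in males, and gce exceeded 76.1% and 70.1%, so that many X genes had differences of this size or more.

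The ratio of gce to Met, from which library scaling cancels, followed sex more than karyotype. It was 1.84 in normal females against 1.81 in trisomic females, and 1.45 in normal and 1.52 in trisomic males. The models of gce differed little in their ratio of trisomic to normal larvae, with 1.41 and 1.39 in females and 1.31 and 1.29 in males. In the release 6 annotation, antisense RNA genes asRNA:CR44429 and asRNA:CR44961 share exonic sequence with gce on the other strand. Strandedness of the counting was not given in the sources used here, so reads of these genes and of gce cannot be told apart.

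Neighbouring genes did not share these differences throughout. Beside Met, CG15220 (RPA3 in the release 6 annotation) differed by -0.63 in females and -0.65 in males and Ptp10D by 0.34 and 0.06. Next to gce, CG5877 differed by -0.72 and -1.62, while Top1, the DNA topoisomerase gene, differed by 0.50 and 0.40, close to the values of gce.

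Met and gce were weakly expressed beside Kr-h1. Per kilobase of annotated exon (release 6), Met stood at 0.801 to 1.14 CPM, gce at 1.10 to 1.80 CPM and Kr-h1 at 3.66 to 6.01 CPM over the groups. The highest level of each of these was in trisomic females. On this scale gce was above Met in every group.

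The other genes of the receptor list were tai, a coactivator that partners Met, and Hsp83, the chaperone that helps Met enter the nucleus. The 2L gene tai stood at 38.6 CPM in normal females against 58.7 CPM in trisomic females, a 1.52-fold difference, but at 43.7 and 46.8 CPM in males, a log2 difference of 0.09. Hsp83 differed by -0.06 in females and -0.28 in males, less than or close to the shift of the autosomal genes.

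Kr-h1 is the member that lies on the trisomic arm. Its mean level was 19.4 CPM in normal females, 31.9 CPM in trisomic females, 20.2 CPM in normal males and 28.9 CPM in trisomic males. The normal groups were nearly level with each other and both lay below the trisomic groups. The trisomic to normal ratio was 1.64 in females and 1.43 in males, on either side of the 1.5-fold ratio of gene copies. The log2 differences were 0.69 and 0.50, and relative to 2R, 3L and 3R genes 0.89 and 0.81. By comparison the 1270 genes of 2L had medians of 0.19 and 0.10 on the deposited scale. Kr-h1 exceeded 75.7% of them in females and 67.6% in males, which places it in the upper part of the arm but not at its end.

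The 3 transcript models of Kr-h1 moved alike. Their trisomic to normal ratios ran from 1.64 to 1.65 in females and from 1.43 to 1.44 in males. The most abundant model stood above the others by a like proportion in every group, with 21.6 CPM in normal females, 35.8 CPM in trisomic females, 22.4 CPM in normal males and 32.2 CPM in trisomic males. In the release 6 annotation the gene CG45075 shares exons and strand with Kr-h1, so counts given to Kr-h1 may include it.

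On the other side of Kr-h1 its annotated neighbour Kr-h2 stood at 77.8 CPM in normal females against 63.0 CPM in trisomic females, and at 94.8 and 70.7 CPM in males. Its differences, -0.30 and -0.42, were thus of the opposite sign to those of Kr-h1 although both genes are present in 3 copies. They lay below the 2L medians of 0.19 and 0.10 and closer to the autosomal shift of -0.20 and -0.31.

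The ratio of Kr-h1 to each receptor gene, from which library scaling also cancels, varied between the groups. For Kr-h1 over Met it was 4.76 in normal females, 5.503 in trisomic females, 4.57 in normal males and 5.28 in trisomic males. For Kr-h1 over gce it was 2.59, 3.05, 3.15 and 3.47 in the same order. In both sexes each ratio was higher in trisomic than in normal larvae.

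Other genes that respond to the hormone, or carry its response in flies, differed among themselves in direction. Of the 8 in that list, Kr-h1 included, 6 had a mean of at least 10 CPM. In females 1 of them, Kr-h1 itself, was at least 1.5-fold higher and 2 were lower, and in males 1 was higher and 3 were lower. Over the 6308 genes these shares were 15.3% and 18.3% in females and 17.0% and 29.5% in males, and counts of this size cannot be told from them. Their median difference was -0.01 in females and -0.31 in males, or 0.19 and 0.00 relative to the autosomal shift. Chd64, whose protein binds a juvenile hormone response element in fly cells, was lower in both sexes, with 416 CPM in normal females against 256 CPM in trisomic females, and 379 and 235 CPM in males. FK506-bp1 encodes its partner FKBP39 and went the other way, with 49.7 CPM in trisomic against 39.9 CPM in normal females and 51.9 CPM against 32.5 CPM in males, log2 differences of 0.31 and 0.66.

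The metamorphosis gene br, which specifies the pupal stage, differed mainly between the male groups. It stood at 64.8 CPM in normal females against 65.04 CPM in trisomic females, and at 70.7 CPM in normal and 33.6 CPM in trisomic males. Every one of its 12 models was lower in trisomic males, by 1.73-fold to 2.37-fold. Eip75B, an ecdysone-induced nuclear receptor gene that juvenile hormone also induces in fly cells, had a like course, with 40.4 and 39.9 CPM in females and 48.4 and 26.7 CPM in males. JhI-26, named for its induction by the hormone, stood at 58.4 CPM in normal females and at 36.7, 36.6 and 38.4 CPM in trisomic females, normal males and trisomic males, so that normal females stood apart from the rest.

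Jhe encodes the esterase that removes the methyl group of juvenile hormone. Its level was 7.45 CPM in normal females, 1.56 CPM in trisomic females, 5.70 CPM in normal males and 1.25 CPM in trisomic males. Both normal groups lay far above both trisomic groups, by 4.79-fold in females and 4.56-fold in males. On the log2(CPM + 1) scale the differences were -1.73 and -1.57, and with no pseudocount -2.26 and -2.19. Its 2 models gave the same ratios, 0.210 and 0.208 in females and 0.220 and 0.219 in males.

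The level of Jhe in trisomic females is below the 2.81 CPM that 608 transcript models share in that column, while in the other groups it lies above the shared value. The size of its female difference therefore cannot be read firmly. In rank Jhe stood above 54.0% of all genes in normal females and 29.9% in trisomic females, and above 38.2% and 22.7% in normal and trisomic males.

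Jhedup lies next to Jhe on 2R, on the same strand, and encodes a related esterase. It was measured at 4.63 CPM in normal females, 1.71 CPM in trisomic females, 4.78 CPM in normal males and 2.74 CPM in trisomic males. It too was lower in trisomic larvae, with log2 differences of -1.06 and -0.63. Its difference was the smaller in both sexes, so the ratio of Jhe to Jhedup was lower in trisomic larvae, at 1.61 in normal females against 0.912 in trisomic females, and 1.19 against 0.457 in males. In trisomic females both genes lay below the shared value of 2.81 CPM. Neither the ratio there nor the female difference of either gene can therefore be read firmly. On the other side of Jhe, CG30095 stood at or below 1.33 CPM in every group.

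The epoxide hydrolase genes were the most abundant members. Per kilobase of exon, Jheh3 had 33.7 to 60.1 CPM, Jheh2 32.0 to 44.3 CPM and Jheh1 21.8 to 28.3 CPM, while Jhe had at most 3.55 CPM. They follow each other on 2R in the order Jheh1, Jheh2, Jheh3 on 1 strand, with CG18190 before Jheh1, which differed by -0.59 in females and -0.91 in males. An antisense gene, asRNA:CR46485, shares exonic sequence with all 3 on the other strand, so its reads cannot be told apart from theirs. Related genes of this kind may also share reads.

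Jheh2 was lower in trisomic larvae by the same proportion in both sexes. It stood at 82.4 CPM in normal females, 61.6 CPM in trisomic females, 85.3 CPM in normal males and 63.7 CPM in trisomic males. Females and males of a karyotype were nearly level. The normal to trisomic ratio was 1.34 in both sexes, and the log2 difference was -0.41 in females and -0.42 in males. Relative to the autosomal shift these became -0.22 and -0.11, and Jheh2 exceeded 38.1% and 44.4% of the 1297 genes of 2R with a mean of at least 10 CPM, which is near the middle of its arm.

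Jheh3 differed mainly between the male groups. It stood at 80.8 CPM in normal females, 83.8 CPM in trisomic females, 53.2 CPM in normal males and 94.7 CPM in trisomic males. Normal males were low and the other groups lay close together. The male difference was 1.78-fold, or 0.82 on the log2 scale, and the female difference 1.04-fold, or 0.05. In males Jheh3 exceeded 90.7% of the genes of 2R, and in females 64.5%.

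Jheh1 had differences of opposite sign in the sexes. Its levels were 42.1 CPM in normal females, 33.0 CPM in trisomic females, 32.3 CPM in normal males and 39.8 CPM in trisomic males. Normal females and trisomic males were the higher pair, and trisomic females and normal males the lower pair. The log2 difference was -0.34 in females and 0.29 in males, each below 1.5-fold, and relative to the shift -0.14 and 0.60.

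Because the courses of these genes differed, the makeup of the family differed between groups more than its total did. Summed over the 3 genes, the level was 205 CPM in normal females, 178 CPM in trisomic females, 171 CPM in normal males and 198 CPM in trisomic males. Jheh3 made up 39.4% of this sum in normal females and 47.0% in trisomic females. In males its share was 31.1% in the normal and 47.8% in the trisomic group. Jheh2 held 40.1% in normal females against 34.5% in trisomic ones and 49.95% in normal males against 32.1%, while that of Jheh1 stayed between 18.5% and 20.5%. The ratio of Jheh3 to Jheh2, which library scaling leaves as it is, was 0.981 in normal females against 1.36 in trisomic females, and 0.623 against 1.49 in males. Both trisomic groups were above 1 and both normal groups below it.

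**Figure D3:**
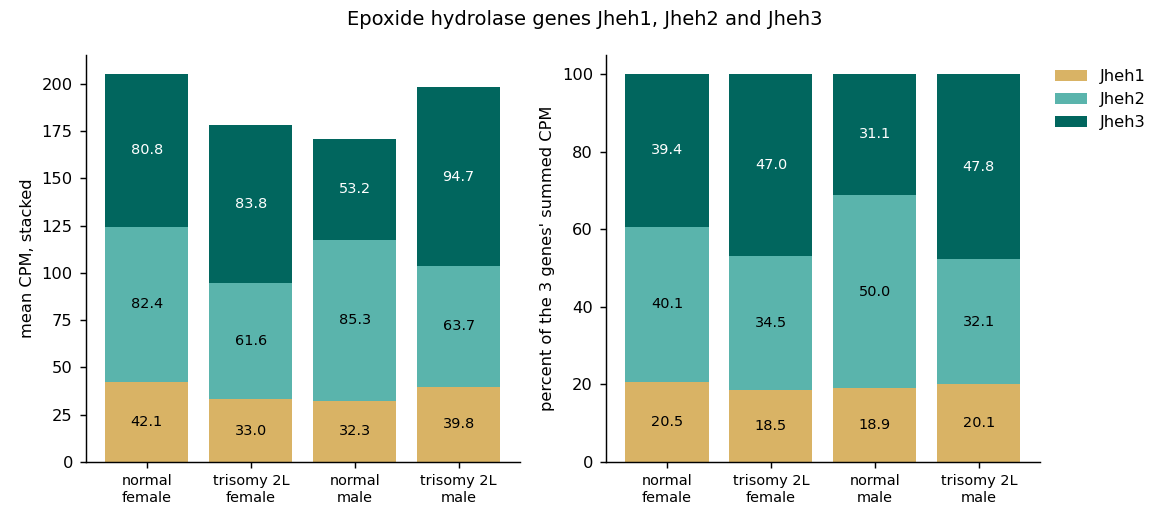
Left, mean CPM of Jheh1, Jheh2 and Jheh3 stacked in each group; right, each gene as a percent of the 3 genes' summed CPM; values printed in the bars are group means or shares, with no error available. The total runs from 171 to 205 CPM, the share of Jheh3 is 47.0% and 47.8% in the trisomic groups, and that of Jheh2 is highest in normal males.

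Sex differences of the members were small. No member was at least 2-fold different between the sexes in either karyotype. Of the 6308 genes 9.32% had at least 2-fold more in normal males than in normal females and 0.523% at least 2-fold less, and 7.72% and 0.412% in trisomic larvae. In the range of 2 to 10 CPM 29.4% were higher and 0.221% lower in normal males, and 23.9% and 0.467% in trisomic males. The largest sex difference among members was that of Jheh3 in normal larvae, with 1.52-fold more in females, a log2 difference of -0.60 that was below those of all but 3.54% of the 6308 genes. Jheh1 and Jhe were also higher in normal females, by 1.302-fold and 1.31-fold. In trisomic larvae gce (1.26-fold) and Jhe (1.24-fold) remained higher in females, while Jheh1 was 1.21-fold and Jheh3 1.13-fold higher in males.

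The male karyotype difference exceeded the female one by 0.77 for Jheh3 and 0.64 for Jheh1, on the log2(CPM + 1) scale, and 5.88% of the 6308 genes had an excess of at least 1.5-fold in that direction. Jheh3 exceeded 97.5% and Jheh1 95.2% of these genes. For Jheh2 the excess was -0.002, and for Jhe, Kr-h1, Met and gce it was 0.15, -0.19, -0.16 and -0.10. None of these differences between the sexes was tested.

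Genes of juvenile hormone synthesis were followed as a list. The final step is carried out by the methyltransferase encoded by jhamt, which stood at 1.09 CPM in normal females, 0.686 CPM in trisomic females, 1.05 CPM in normal males and 0.670 CPM in trisomic males. The difference was -0.31 in females and -0.30 in males. These levels lie below the value shared by many models in both female groups and above it in both male groups. Of the 8 genes of synthesis, 5 had a mean of at least 10 CPM, with 0 at least 1.5-fold higher and 1 lower in females and 1 higher and 2 lower in males, beside the 15.3% and 18.3% of all genes in females and 17.0% and 29.5% in males. These genes serve the mevalonate pathway and prenyl chains in general and not only the hormone.

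Hmgs, the synthase gene of an early step of that pathway, was measured at 32.1 and 38.8 CPM in females and at 23.8 and 41.3 CPM in males, a log2 difference of 0.27 and 0.77. Lower in trisomic larvae were qm, a prenyl diphosphate synthase gene, at -0.64 and -0.70, and CG5919, the isopentenyl diphosphate isomerase gene Idi of RefSeq, at -0.52 and -0.61. Fpps, the farnesyl diphosphate synthase gene, differed by -0.37 and -0.43, less than 1.5-fold.

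Allatostatin signalling genes, which restrain hormone synthesis in many insects, all had a mean below 10 CPM. Of the 4 matched by name, none was at least 1.5-fold different in either sex on the log2(CPM + 1) scale. As plain ratios of trisomic to normal larvae, AlstR stood at 0.582 in females and 0.601 in males. For star1 the ratio was 1.41 in females and 0.650 in males. Both genes lay below 1 CPM in every group, where this scale can hardly show a 1.5-fold difference. Over the lists as a whole, 22 genes besides the members were measured, of which 12 had a mean of at least 10 CPM. Of these 12, 1 was at least 1.5-fold higher and 3 lower in females, and 2 higher and 5 lower in males. These counts stand beside 15.3% higher and 18.3% lower over the 6308 genes in females and 17.0% and 29.5% in males. Their median was -0.21 in females and -0.46 in males, beside -0.06 and -0.18 over all 6308 genes. Relative to the shift of 2R, 3L and 3R genes it was -0.01 in females and -0.15 in males.

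**Figure D4:**
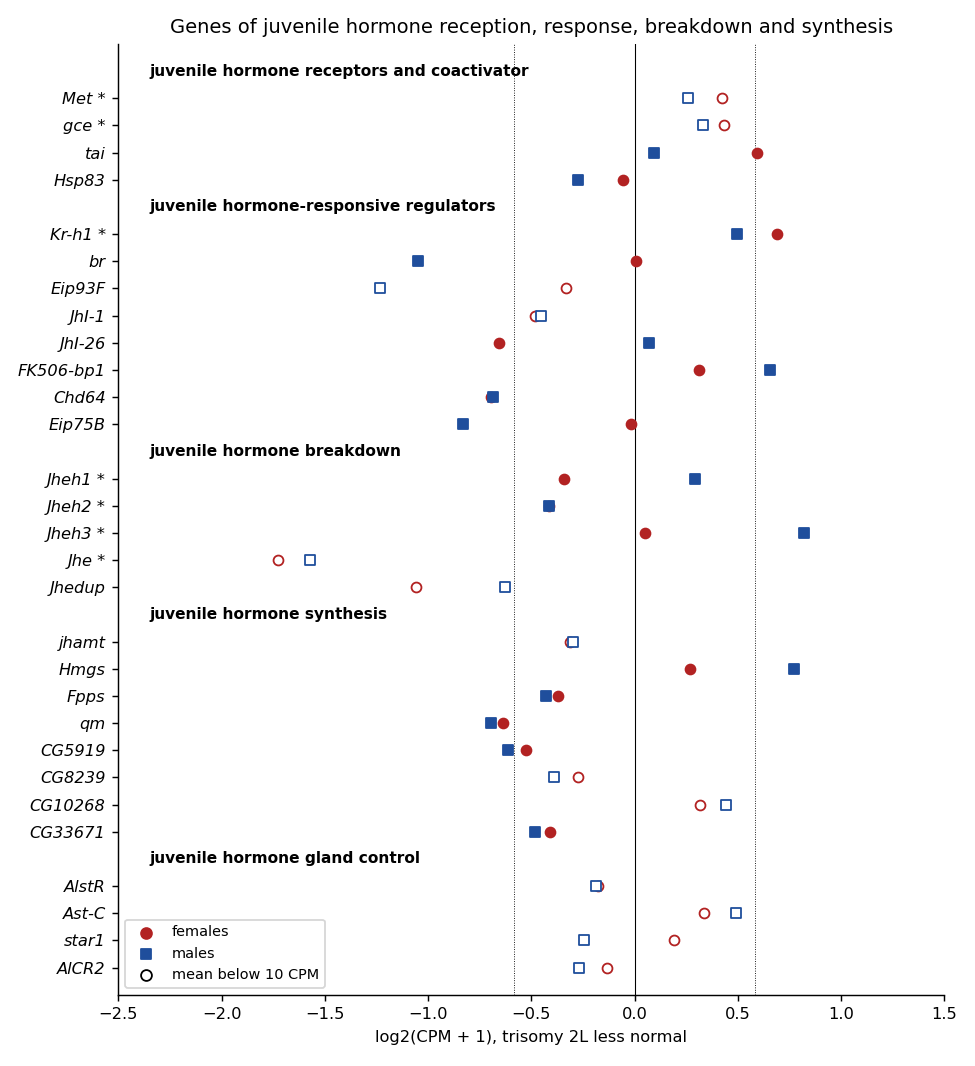
Karyotype difference, log2(CPM + 1) in trisomy 2L less normal larvae, of the genes in 5 lists of juvenile hormone biology, in females (red circles) and males (blue squares); open symbols are genes with a mean below 10 CPM, asterisks mark the 7 members and dotted lines 1.5-fold. Jhe and Jhedup lie at the left of the breakdown list, and br, Eip75B and Jheh3 show wide gaps between females and males.

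Genes whose levels ran most like those of a member were found by the distance between their 4 log2(CPM + 1) values after each gene's own mean was taken off, among 6307 other genes. With only 4 points, several genes lie close to any pattern. Nearest to Kr-h1 was Hsp67Ba on 3L (distance 0.03), at 12.1 and 20.4 CPM in females and 12.5 and 18.02 CPM in males, followed by CG30115 and CG34126. Nearest to Jheh2 were CG9330, CG9099 and CG15445. Jheh3 lay closest to CG3884 (distance 0.03), then to the muscle myosin light chain gene Mlc2 and to CG4302, and Jheh1 to CG11672 (distance 0.03), CG32373 and the mucin gene Muc96D.

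The order of the groups differed in how common it was. Jheh3 was highest in trisomic males, then trisomic females, normal females and normal males, an order that 10.3% of the 6307 genes shared. The order of Jheh1, with normal females highest and normal males lowest, was shared by 1.33% of them. That order rests in part on a small gap, with 33.0 CPM in trisomic females against 32.3 CPM in normal males. The highest group of Jheh1 was 1.30-fold above the lowest.

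Levels in whole larvae cannot tell fewer cells of a type from less RNA per cell, and marker genes of several tissues also differed between the groups. Among these markers Sgs1, Lsp1beta, Fbp2, Jon25Bi, Jon25Bii, Jon25Biii, Uro, Irk3, Nha1 and jhamt lie on 2L. Trisomic larvae carry 3 copies of these genes. All 7 glue genes of the salivary gland were at least 1.5-fold lower in trisomic larvae, and their summed level was 19471 CPM in normal females against 6715 CPM in trisomic females, and 18299 and 4950 CPM in males. Summed fat body markers (6 genes) were 63092 and 73537 CPM in females and 49168 and 55948 CPM in males, while the median gene differed by 0.33 in females and -0.07 in males, the latter of the opposite sign to the sum. Much of these sums is the 2L gene Lsp1beta, at 14926 and 23835 CPM in females and 14782 and 24799 CPM in males. Of the 6 genes 5 were higher in trisomic females and 3 in trisomic males. The 8 midgut markers summed to 4812 and 5451 CPM in females and 3312 and 6261 CPM in males. Of these 8 genes 7 were higher in trisomic larvae of each sex, with a median difference of 1.35 in females and 2.31 in males. The other, Jon65Aiii, was lower, at 3088 against 1160 CPM in females and 2241 against 1394.5 CPM in males. The 7 Malpighian tubule markers summed to 209 and 229 CPM in females and 153 and 252 CPM in males, with medians of 0.05 and 0.45. The midgut and tubule sums had the group order of Jheh3, as did 5 of the 8 midgut genes and 2 of the 7 tubule genes singly. That order was shared by 10.3% of the 6307 genes compared. Matches were not limited to these tissues. The hormone synthesis sum had the group order of Jheh2, as did 4 of its 8 genes, and so had the receptor list sum, with 1 of its 4 genes. That order was shared by 13.3% of the 6307 genes. Most of the receptor list sum is Hsp83, at 875 and 842 CPM in females and 1039 and 858 CPM in males. The sum was nearly level in trisomic females and trisomic males, at 917 and 919 CPM. Met, gce and tai were higher in trisomic larvae of each sex, and Hsp83 was lower. The 8 ring gland markers, jhamt among them, summed to 51.1 and 33.0 CPM in females and 44.8 and 27.6 CPM in males, and spok, a gene of ecdysone synthesis, gave the highest single level in each group, at 29.2 and 13.8 CPM and at 23.8 and 9.88 CPM. Of the 8 genes 6 were lower and 2 higher in trisomic larvae of each sex, with a median difference of -0.34 in both sexes. Relative to the autosomal shift the medians were -0.14 in females and -0.03 in males. No marker was at 0 in any group, but some lay below the shared value of their column and cannot be read firmly. The lowest was Vha16-2 of the tubule list, at 0.0467 CPM in trisomic females. Its level in normal females, 2.22 CPM, is the shared value itself. The part of tissue makeup and of developmental timing in the results for juvenile hormone genes was not tested.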

How the data were processed

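Larvae were compared as 4 groups defined by the sample titles. The deposited tables hold CPM averaged by the authors over the repeats of each group, per the file headers; column totals over the pair of tables are 1000000. TopHat, HTSeq and dm3 are named in the submitters' processing notes, with annotation, strandedness and versions not given in the sources used here. Depth per sample is unknown, so no interval, error or test was computed; the tests foreseen for replicate values were not run.

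Rows of the same gene name were averaged (22738 transcript models, 14161 genes). Differences are log2(CPM + 1), which understates changes of low genes, and were counted by size at 1.5-fold between karyotypes and 2-fold between sexes, among genes with a mean of at least 10 CPM. Members, lists and thresholds were chosen with earlier results of these data known; the range of 2 to 10 CPM and centring on its own genes were added after the values had been seen. Named were all members, other list genes at least 1.5-fold different with a mean of at least 10 CPM, jhamt, the 3 nearest genes of each member past that mean and gene neighbours. Jhedup, Hsp83, Fpps, AlstR, star1, Lsp1beta, Jon65Aiii, Vha16-2 and spok were named after their values were seen, and other markers for lying on 2L. Names, gene order and exon length came from release 6 annotations, a different build, so no coordinates are given. Alternatives were the pseudocount, row handling, filter, threshold and centring on 2R, 3L and 3R genes. A total of 2 genes of the original lists are not reported here and are left out of all list counts. The steps were checked on simulated data. Python 3.11.15, numpy 2.4.6, pandas 2.3.3 and matplotlib 3.10.9 were used.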

Additional observations from a re-analysis of the deposited data

Results flagged for a closer look

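Among the members and the list genes that averaged 10 CPM or more and were at least 1.5-fold different in either sex, 3 had karyotype differences of opposite sign in females and males, which drew attention to them; each rests on single group means and was not tested. Jheh1 differed by -0.34 in females and 0.29 in males, so the male value exceeded the female one by 0.64, and relative to the autosomal shift the pair was -0.14 and 0.60. JhI-26 differed by -0.66 and 0.07, a gap of 0.72, and by -0.46 and 0.38 relative to the shift. For br the values were 0.01 and -1.05, a gap of -1.06 in which the female value is close to 0. Relative to the shift the values of br were 0.20 and -0.74. Eip75B had a like course, at -0.02 and -0.83, or 0.18 and -0.52 relative to the shift. It was not among the 3 because its female value lay just below 0.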

How the results depend on the processing

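No paired analysis was possible because the columns are group means, and no replicate could be left out. Over 5 alternatives, 175 values of the members were recomputed: 164 kept their sign and their side of the size threshold, 5 near 0 changed sign, 5 passed the threshold and 1 no longer did. Jheh1, Jheh3 and Met have 1 transcript model each, so the alternatives of row handling return their values unchanged by construction. Those values are counted among the 164. The 5 that passed did so after centring on 2R, 3L and 3R genes: Met (0.62) and gce (0.63) in females, and Jheh1 (0.60), Kr-h1 (0.81) and gce (0.64) in males. With centring on such genes of 2 to 10 CPM, added after the values were seen, Met (0.49) and gce (0.50) did not pass in females, and Met (0.73) and gce (0.81) passed in males. With a pseudocount of 5 the excess of the male over the female difference of Jheh1 was 0.57, under 1.5-fold. On the relative scale the count of higher members averaging 10 CPM or more in males was 3 instead of 1. At 2-fold it was 0 in either sex, and at 1.5-fold between the sexes 1 member, Jheh3, was lower in normal males. With no filter 1 member, Jhe, was lower in either sex, as it was among members of 2 to 10 CPM, where 0 were higher. For the other list genes, 2-fold left 0 higher and 0 lower in females and 0 higher and 1 lower in males; a pseudocount of 5 left 0 higher in females; and the relative scale gave 0 lower in females and 1 in males. The cause of these shifts was not tested beyond the settings' own construction.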
